A study of Mus musculus with 6 samples.

Results

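A group of 7 genes of bone morphogenetic protein (BMP) signalling were followed through mouse neural tube organoids: the ligands Bmp4, Bmp6, Bmp7 and Gdf7, the secreted antagonists Nog (Noggin) and Fst (Follistatin), and Bambi. They are 7 of the 21910 gene symbols with a row in the deposited tables. They were taken by symbol, with earlier results of these data known. Bambi is set beside the antagonists because it dampens BMP signalling, but it is not secreted: it is a membrane pseudoreceptor that lacks the kinase of a true receptor. BMP ligands are secreted dimers that bring together type I and type II receptor kinases, which phosphorylate SMAD proteins that then act on target genes with a shared partner SMAD. Noggin binds BMP ligands outside the cell and keeps them from their receptors, and Follistatin binds activins and, more weakly, several BMPs. In the embryonic neural tube BMPs come first from the surface ectoderm and then from the roof plate, the strip of cells along the dorsal midline, and they pattern the dorsal progenitors and the neural crest; Gdf7 is a classical roof plate ligand.

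The organoids were grown from 1 mouse embryonic stem cell line, Sox1::eGFP;Bra::mCherry, which carries fluorescent reporters of the neural gene Sox1 and of Brachyury. All groups shared this line and its culture: single cells set in Matrigel, bFGF (12 ng/ml) and activin-A (20 ng/ml) in the medium until day 3, then basal medium without either, with no BMP and no BMP inhibitor named in the protocol. The 6 single-cell libraries were 1 of organoids that had not elongated by day 6, 2 of elongated organoids at day 6 (labelled batch 1 and batch 2, here replicates 1 and 2), and 1 each of elongated organoids at days 7, 8 and 10. The protocol pools 100 organoids per condition, so a library is a mean over organoids, and only elongated day 6 had a second library.

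The libraries held 2076 to 3677 cells each, 16282 in all, with 74072752 to 152742819 unique molecular identifiers (UMIs, counts of captured RNA molecules) per library. The median per cell ranged from 22053 UMIs at day 10 to 59014 in elongated day 6 replicate 2. The counts were deposited in 2 parts: non-elongated organoids and replicate 1 share a first table (the day 6 table), and replicate 2 and days 7 to 10 a second. Gdf7 has a row in the second table only, so it was not analysed in the non-elongated library or in replicate 1. Levels are given as CPM, the UMIs of a gene over all UMIs of the library or cell class, scaled to 1000000, and bracketed ranges are exact Poisson 95% intervals, which cover counting error only. In such sums, fewer cells of a type and less RNA per cell cannot be told apart. Levels are compared within a gene, not between genes. Adjusted p-values are from the edgeR quasi-likelihood test with Benjamini-Hochberg adjustment over all genes tested, and a gene is called below 0.05. In group comparisons they rest on the spread between the day 6 duplicates, which differ in batch label and in table and are not stated to be separate cultures. For slopes over day they rest on the scatter of libraries about a straight line, so a curved course counts as error. The slope in the second table has no duplicates.

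Bmp4, a ligand of the early ectoderm and later of the dorsal neural tube, lies at chr14:46383520-46390669 on the minus strand (GRCm38). Over all cells it was at 3.52 CPM in the non-elongated library, 1.73 in elongated day 6 replicate 1 and 0.956 in replicate 2, 3.02 at day 7, 0.916 at day 8 and 1.69 at day 10. The day 8 value lay just under the lower duplicate and the day 10 value between the duplicates. No comparison called Bmp4: its log2 fold change against elongated day 6 was 1.07 ± 0.50 (SE) at day 7 (adjusted p = 0.326), -0.67 ± 0.54 at day 8 (adjusted p = 0.454) and 0.10 ± 0.52 at day 10 (adjusted p = 0.902).

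Bmp6, a ligand of the roof plate, lies at chr13:38345107-38500302 on the plus strand. It was at 0.662 CPM in the non-elongated library, 0.610 and 0.419 in the elongated day 6 duplicates, 3.38 at day 7, 3.35 at day 8 and 5.44 at day 10. The 3 later libraries all lay above the 3 day 6 libraries. Bmp6 rose by 2.61 ± 0.45 on the log2 scale at day 7 (adjusted p = 0.0243), 2.58 ± 0.45 at day 8 (adjusted p = 0.0107) and 3.17 ± 0.45 at day 10 (adjusted p = 0.00292). The last exon of Bmp6 overlaps that of Txndc5, on the opposite strand, and whether the counting used strand is not given in the sources used here, so reads from the overlap are uncertain. Exons of Bmp4 and Fst also share bases with another annotated gene (Gm15217 and Gm47040), and the same limit holds for them; the part of such reads in the values was not tested.

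Bmp7, a ligand of the surface ectoderm, roof plate and many other tissues, lies at chr2:172868012-172940321 on the minus strand. It was at 14.7 CPM in the non-elongated library, 8.02 and 5.91 in the elongated day 6 duplicates, 3.39 at day 7, 1.44 at day 8 and 5.62 at day 10. Its course was a dip: day 8 was 4.83-fold below the mean of the duplicates, and day 10 was near the lower of them. Bmp7 fell by 2.40 ± 0.40 on the log2 scale at day 8 (adjusted p = 0.00931). The other days missed the threshold, with -1.15 ± 0.37 at day 7 (adjusted p = 0.158) and -0.55 ± 0.36 at day 10 (adjusted p = 0.293).

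Gdf7 lies at chr12:8297918-8301954 on the minus strand and gave few UMIs. It had 2 UMIs (0.0131 CPM) in elongated day 6 replicate 2, 46 (0.345 CPM) at day 7, 19 (0.164 CPM) at day 8 and 131 (1.46 CPM) at day 10. A straight line over day in the 4 libraries of this table, a fit chosen after seeing that the other table could not be used, gave a log2 slope of 1.05 ± 0.38 per day for Gdf7 with an adjusted p of 0.140. Day 10 was the highest of the 4 libraries, and its value is a level in 1 library.

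The 250 bases before the RefSeq starts of Gdf7 and Bmp4 (RefSeq, build GRCm38.p6) are shown because these ligands lay differently over the cell classes described below: at day 10, 92.4% of Gdf7 UMIs and 34.2% of Bmp4 UMIs lay in the 2 classes the authors name Pre-EMT. RefSeq windows were at hand for 3 of the 7 genes. Both stretches read 5′ to 3′ on the minus strand, Gdf7 at chr12:8301955-8302204 and Bmp4 at chr14:46390670-46390919, and capitals mark a GC box (GGGCGG, searched on both strands).
Gdf7: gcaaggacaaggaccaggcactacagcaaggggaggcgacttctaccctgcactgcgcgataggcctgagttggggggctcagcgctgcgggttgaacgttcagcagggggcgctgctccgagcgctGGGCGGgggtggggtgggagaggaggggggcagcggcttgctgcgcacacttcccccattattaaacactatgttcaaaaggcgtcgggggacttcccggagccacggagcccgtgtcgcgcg
Bmp4: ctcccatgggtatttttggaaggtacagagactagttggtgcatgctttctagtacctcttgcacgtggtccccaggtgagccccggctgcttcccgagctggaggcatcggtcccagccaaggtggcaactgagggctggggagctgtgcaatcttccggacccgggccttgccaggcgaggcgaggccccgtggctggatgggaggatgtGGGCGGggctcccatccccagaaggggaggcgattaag
Each held 1 GC box, as did 32.7% of the 32851 promoter windows of this length. Neither held a GC-rich SMAD site (GGCGCC, found in 9.59% of the windows), an E-box with a GC core (CAGCTG, found in 13.0%), a homeodomain core (TAATTA, found in 4.84%) or a TCF/LEF core (CTTTGA, found in 13.8%), all searched on both strands. A match, or none, describes these letters only. GC content was 66.0% for Gdf7 and 63.2% for Bmp4, against a median of 52.4% over all windows.

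Nog lies at chr11:89300638-89302332 on the minus strand. It was at 2.85 CPM in the non-elongated library, 2.57 and 1.15 in the elongated day 6 duplicates, 15.3 at day 7, 8.11 at day 8 and 23.3 at day 10. All later libraries exceeded all day 6 libraries, although the duplicates themselves differed by 1.11 on the log2 scale. Day 10 was 9.05-fold above replicate 1 and 20.2-fold above replicate 2. Nog rose by 2.94 ± 0.46 at day 7 (adjusted p = 0.0166), 2.01 ± 0.46 at day 8 (adjusted p = 0.0285) and 3.41 ± 0.46 at day 10 (adjusted p = 0.00229) on the log2 scale.

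Fst lies at chr13:114452290-114458951 on the minus strand and took the opposite course. It was at 102 CPM in the non-elongated library, 88.2 and 117 in the elongated day 6 duplicates, 39.4 at day 7, 9.25 at day 8 and 1.64 at day 10. The libraries separated by day with no overlap, and day 10 was 62.8-fold below the mean of the duplicates. Fst fell by 1.50 ± 0.31 on the log2 scale at day 7 (adjusted p = 0.0437), by 3.61 ± 0.35 at day 8 (adjusted p = 0.00121) and by 6.22 ± 0.41 at day 10 (adjusted p = 0.00016). The day 7 call was lost when scaling used library size alone (adjusted p = 0.0567), without the filter on low counts (0.0589) and with a minimum count of 100 (0.0698). Over the 5 elongated libraries its slope was -1.58 ± 0.10 per day (adjusted p = 0.00744), and without replicate 2 it was -1.53 with an adjusted p of 0.0510.

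Bambi, on chromosome 18, was at 18.8 CPM in the non-elongated library, 13.5 and 9.43 in the elongated day 6 duplicates, 18.7 at day 7, 7.07 at day 8 and 30.1 at day 10. Its order was not that of time, with day 8 lowest and day 10 highest. Bambi rose by 1.15 ± 0.33 on the log2 scale at day 10 (adjusted p = 0.0400). It differed from day 6 by 0.60 ± 0.34 at day 7 (adjusted p = 0.430) and at day 8 by -0.83 ± 0.36 (adjusted p = 0.174).

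**Figure D1:**
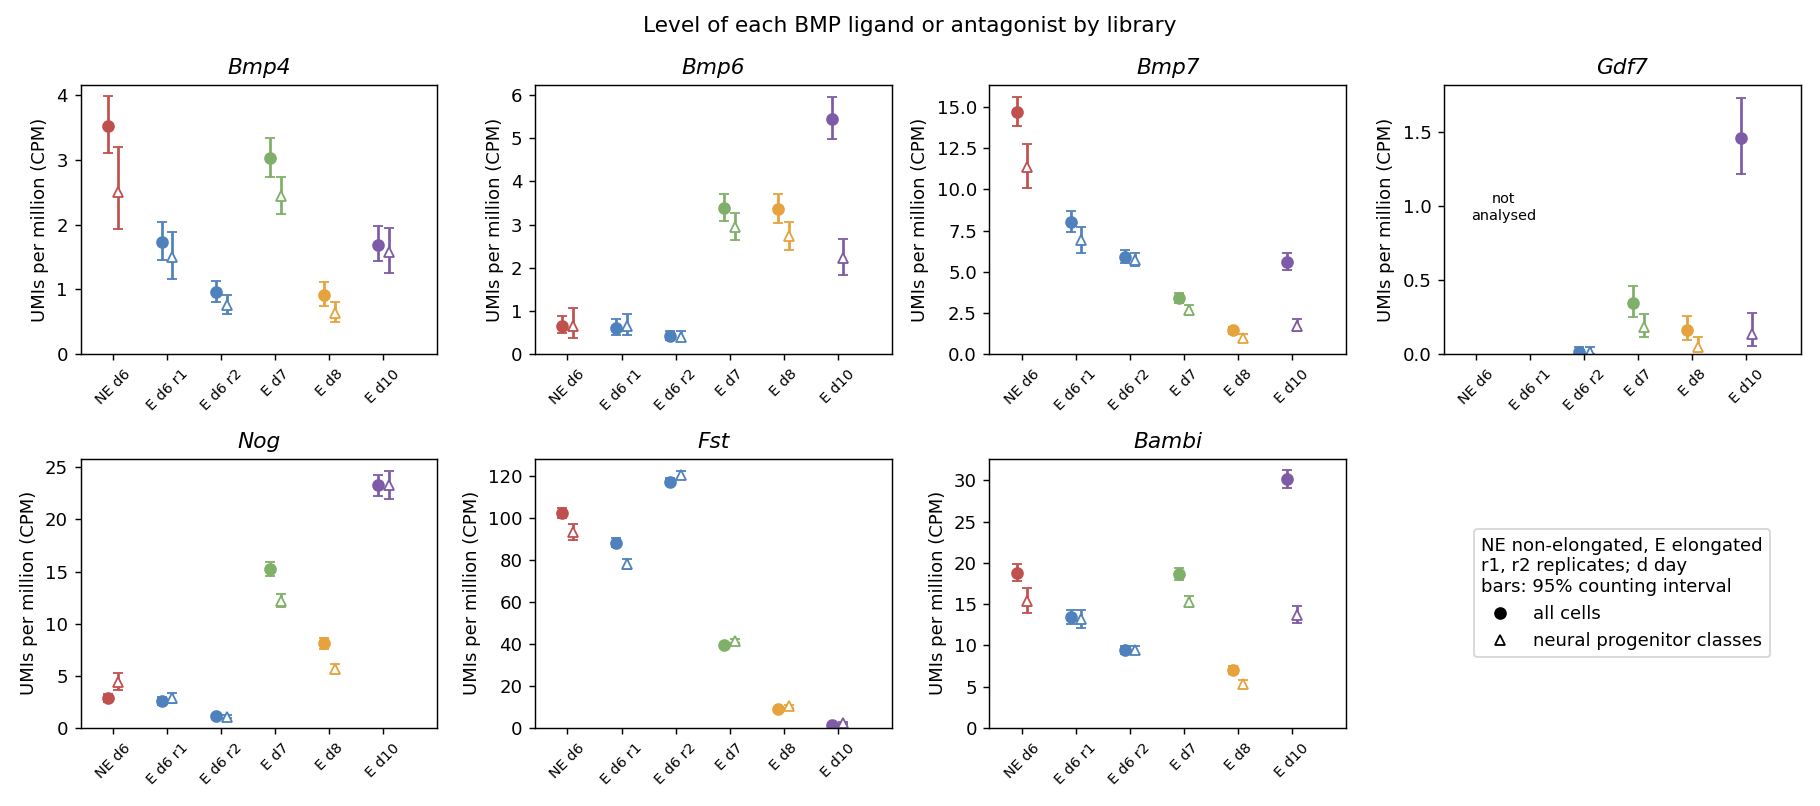
CPM in each library (x axis: NE non-elongated, E elongated, d day, r replicate) for each gene, over all cells (circles) and within neural progenitor classes (triangles), with 95% counting intervals. Fst goes from 117 CPM in replicate 2 to 1.64 at day 10, Nog from 1.15 to 23.3 and Bmp6 from 0.419 to 5.44, while Bmp7 and Bambi have their lowest value at day 8.

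Set against the day 6 duplicates, 2 of the 6 tested genes were called higher (Bmp6, Nog) and 1 lower (Fst) at day 7, where 3.99% of all 16379 genes were called, 1.9% higher and 2.09% lower. At day 8, 2 were higher (Bmp6, Nog) and 2 lower (Bmp7, Fst), beside 13.4% of all genes, 6.74% higher and 6.64% lower. At day 10, 3 were higher (Bmp6, Nog, Bambi) and 1 lower (Fst), beside 26.4% of all genes, 14.1% higher and 12.3% lower. The split over all genes at day 10, 2302 higher and 2018 lower, became 2991 higher and 1382 lower with library size alone, which moved the median gene by 0.25 on the log2 scale. The straight line over the 5 elongated libraries called 23.8% of 15775 genes, 11.3% higher and 12.5% lower, and 1 of the 6, Fst, lower; with library size alone its split over all genes went from 1784 higher and 1965 lower to 2452 and 1318. The fit in the second table called 10.3% of 16809 genes, 4.73% higher and 5.56% lower, and 1 of 7, Fst, lower (-1.63 ± 0.10 per day, adjusted p = 0.0361), and its split went from 795 and 935 to 1016 and 386. The comparisons of days 7, 8 and 10 share the day 6 duplicates. Dates of library preparation are not given, and day 6 replicate 2 and the later days share a table while replicate 1 does not. Against replicate 2 alone, within that table, the log2 difference at day 10 was 3.38 for Bmp6, 4.05 for Nog, -6.41 for Fst and 1.41 for Bambi.

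Neural progenitors were the mid/hindbrain, spinal cord, proliferative and dorsal progenitor classes of the authors, or hindbrain, midbrain and spinal cord in the day 6 table. This set is unlike in the elongated day 6 duplicates. It took in 1333 of 2076 cells in replicate 1 and 2305 of 2402 in replicate 2, which has no epiblast or surface ectoderm class. The part of this in the values was not tested. Within progenitors, Fst and Bmp7 were called lower at days 8 and 10, Nog was called higher at day 10 and Bmp6 at days 8 and 10. Fst was at 2.19 CPM in day 10 progenitors and fell by 5.68 ± 0.46 on the log2 scale (adjusted p = 0.000485), and Nog was at 23.3 CPM and rose by 3.42 ± 0.53 (adjusted p = 0.00573). Bmp7 in day 10 progenitors was at 1.73 CPM, against 5.62 over all cells, and fell by 2.04 ± 0.43 (adjusted p = 0.0185). Bambi was at 13.7 CPM against 30.1 over all cells, and differed from day 6 by 0.11 ± 0.36 (adjusted p = 0.857). Bmp6 rose in progenitors by 2.25 ± 0.53 at day 8 (adjusted p = 0.0375) and 1.91 ± 0.53 at day 10 (adjusted p = 0.0469), but both calls were lost with a minimum count of 100 (adjusted p = 0.0513 and 0.0557) and with DESeq2 (0.125 and 0.161), and the day 10 call also without a filter (0.0561). At day 8 Bmp7 fell by 2.76 ± 0.45 (adjusted p = 0.0101) and Fst by 3.39 ± 0.40 (adjusted p = 0.00352). Nog differed by 1.42 ± 0.53 at day 8 (adjusted p = 0.138), without the call it had over all cells, and Bambi by -1.21 ± 0.38 (adjusted p = 0.0930). Of all 15789 genes tested in progenitors, 9.57% were called at day 8 (4.76% higher, 4.81% lower) and 17.1% at day 10 (8.85% higher, 8.24% lower). At day 7 none of the 6 was called by edgeR (395 genes were, 2.5% of all, with 1.34% higher and 1.17% lower; 2404 had an unadjusted p under 0.05), with Nog at an adjusted p of 0.0520, Bmp6 at 0.0664 and Fst at 0.107; DESeq2 called 685 genes there, Nog and Fst among them. Whether the change over all cells differs from that in progenitors was not tested. The split over all genes in day 10 progenitors, 1397 higher and 1301 lower, was 1658 and 918 with library size alone.

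The cell classes show where these molecules lay. Classes are the authors' own and were made from all genes, so levels by class are described and not tested, in 1 library each. At day 10 the class the authors name Pre-EMT cranial neural crest (255 cells, 6.94% of the library) and the class they name Pre-EMT vagal/trunk neural crest (105 cells) held together 9.79% of cells. They held 92.4% of the Gdf7 UMIs (86.4% to 96.3%, exact binomial 95% interval), 75.1% of the Bmp6 UMIs (71.0% to 78.8%) and 67.9% of the Bambi UMIs (66.1% to 69.6%). They held fewer of the other genes' UMIs: 34.2% for Bmp4, 25.3% for Bmp7, 24.8% for Nog and 0.680% for Fst, which was 1 UMI of 147. Binomial intervals of shares of UMIs, here and below, take each UMI as a separate draw and cover counting error only. UMIs lay together in cells: the top 26 of 255 cranial cells held 32.8% of the Bambi UMIs of that class.

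The 2 Pre-EMT classes held roof plate markers and few crest markers, against their names, which are kept here as the authors' labels. At day 10 all 7 roof plate markers had UMIs in both classes, with summed levels of 1181 and 1377 CPM, against 288 in mid/hindbrain and 45.2 in dorsal progenitor 2/3. Rspo1, a secreted Wnt agonist of the roof plate, was at 499 and 457 CPM, and Lmx1a, the transcription factor that specifies the roof plate, at 22.3 and 41.9 CPM. The 6 neural crest markers summed to 19.7 and 19.3 CPM, against 21.2 in mid/hindbrain and 1098 in the migratory cranial crest class; Sox10, which marks crest cells, had 1 UMI in the cranial and 0 in the vagal/trunk class against 374 CPM in the migratory class, and Foxd3, the list's marker of premigratory crest, was at 0 in both. The list holds Tfap2a and Tfap2b, which dorsal interneurons make too, and its sum in dorsal progenitor 2/3 was 460 CPM. Mesoderm and mesenchyme markers summed to 116 and 68.3 CPM in the Pre-EMT classes (5 and 4 of 8 with UMIs, Mesp1 and Hand1 at 0 in both) against 10.5 in mid/hindbrain. Neural progenitor markers were also present there, at 440 and 574 CPM summed. At day 6 the cranial class of replicate 2 was different: its 7 surface ectoderm markers summed to 1402 CPM, with Trp63 at 0, and its roof plate markers to 77.0 CPM, with Lmx1a at 0. At day 7 these sums were 328 and 691 CPM, and at day 8 they were 36.1 and 923 CPM. So values of the cranial class across days do not follow cells of 1 marker profile, and the part of this shift in the levels by day given below was not tested.

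Gdf7 at day 10 was at 13.1 CPM (10.8 to 15.9) in the cranial class and 5.23 CPM (2.99 to 8.50) in the vagal/trunk class. In the mid/hindbrain class it was at 0.138 CPM (4 UMIs, 0.0375 to 0.353), which is 95.4-fold lower than in the cranial class. After thinning each cell to 10000 UMIs, 31 of 255 cranial cells (12.2%) and 6 of 105 vagal/trunk cells (5.71%) had a Gdf7 UMI, and 29.4% of cranial cells did without thinning. For comparison, 0 of 391 cells of the dorsal progenitor 2/3 class had one, which allows a share of up to 0.767%; median depths were 28865 and 16548.5 UMIs per cell before thinning. Earlier the cranial class held 14 of 19 Gdf7 UMIs at day 8 and 19 of 46 at day 7, when the much larger mid/hindbrain class also held 19.

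Bmp6 was at 31.1 CPM (27.3 to 35.2) in the Pre-EMT cranial class and 38.9 CPM (32.2 to 46.6) in the vagal/trunk class at day 10, against 3.31 CPM (2.68 to 4.04) in the mid/hindbrain class, a ratio of 9.39 for the cranial class. In the cranial class it was at 10.5 CPM at day 7 and 23.6 at day 8, while the mid/hindbrain class stayed between 3.01 and 3.59 CPM from day 7 on. The 3 dorsal interneuron classes were each at 0.341 CPM or less at day 10, on 1 to 3 UMIs. With cells thinned, 38.1% of vagal/trunk and 23.5% of cranial cells had a Bmp6 UMI, against 0 of 362 dorsal interneuron 2 cells, which allows up to 0.829% (median depths before thinning 26756, 28865 and 18496.5).

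Bambi had the same 2 classes on top: 176 CPM (167 to 185) in the cranial and 142 CPM (129 to 156) in the vagal/trunk class at day 10, against 17.2 CPM in mid/hindbrain and 2.60 to 23.9 CPM in the other classes. In the cranial class it was at 52.7 CPM at day 7 and 51.5 at day 8. Thinned shares at day 10 were 72.5% and 68.6% in the 2 Pre-EMT classes, 13.9% in mid/hindbrain and 2.05% in the dorsal progenitor 2/3 class.

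Nog was spread more widely. Its day 10 level was 74.5 CPM (65.2 to 84.9) in the vagal/trunk class, 36.3 in the cranial class, 29.9 in mid/hindbrain, 27.1 in the dorsal progenitor 1 class and 23.2 in dorsal interneuron 1. Dorsal interneuron 2 and dorsal progenitor 2/3 were low, each at 5.34 CPM, and migratory cranial neural crest had 1 UMI (0.487 CPM). The mid/hindbrain class alone was at 1.10 CPM in day 6 replicate 2, 12.0 at day 7, 5.69 at day 8 and 29.9 at day 10, a 27.1-fold ratio from first to last.

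**Figure D2:**
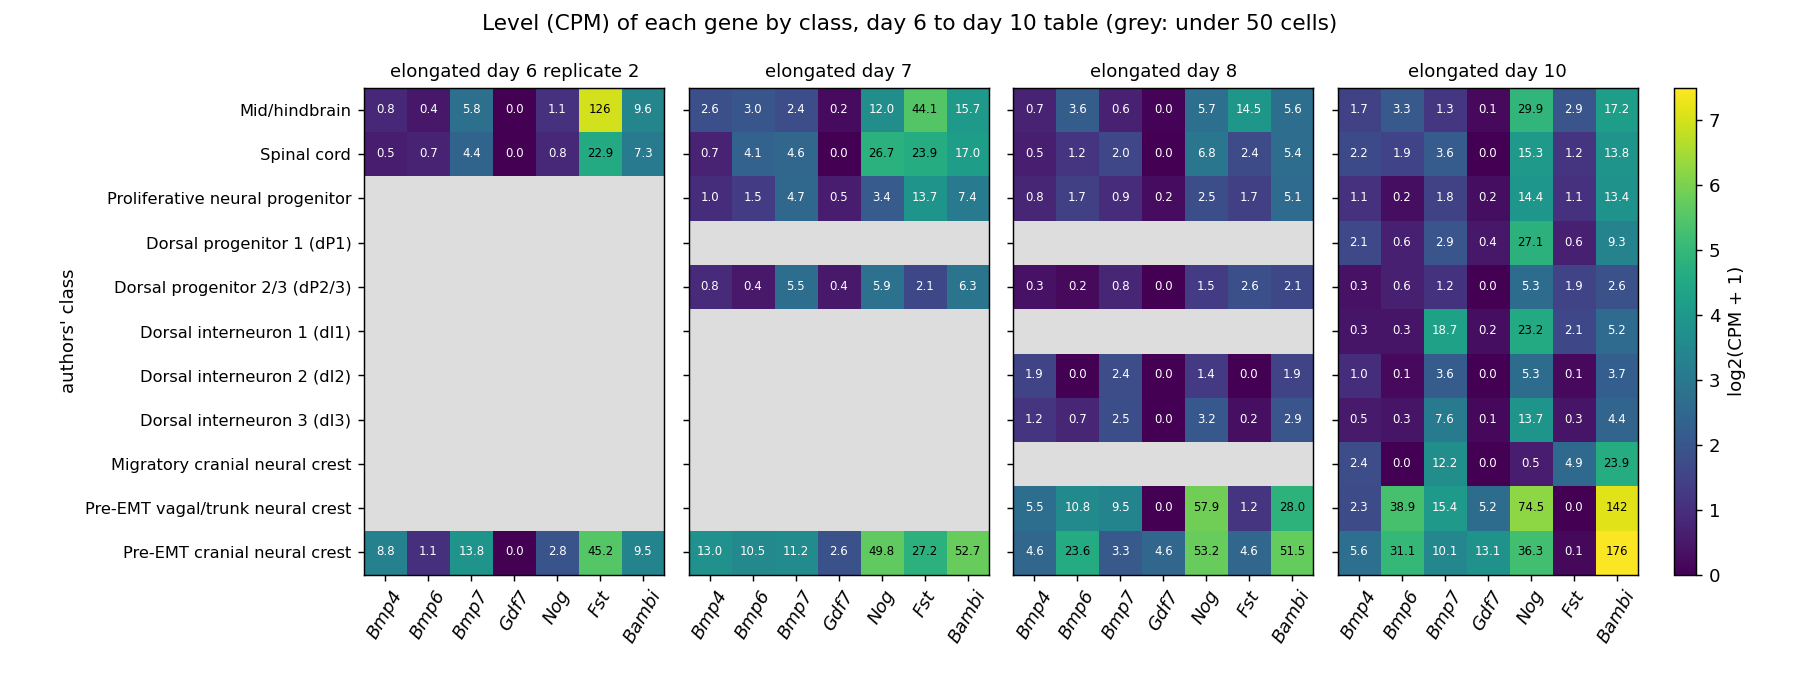
Level of each gene (columns, CPM printed, colour on a log2(CPM + 1) scale) in each class of the authors (rows) with at least 50 cells, in the 4 libraries of the day 6 to day 10 table; colours compare within a gene. Gdf7, Bmp6 and Bambi are highest in the Pre-EMT rows at day 10 (13.1, 38.9 and 176 CPM), Bmp7 in dorsal interneuron 1 (18.7 CPM) and Fst in mid/hindbrain at day 6 (126 CPM).

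Bmp7 departed from the other ligands by its neuronal share. At day 10 the 3 dorsal interneuron classes held 52.1% of Bmp7 UMIs (47.6% to 56.5%) and 32.0% of cells, and dorsal interneuron 1 had the highest level, 18.7 CPM (16.0 to 21.7). Dorsal interneuron 3 was at 7.62 CPM and dorsal interneuron 2 at 3.56, so neurons differed among themselves. The Pre-EMT classes were at 10.1 CPM (cranial) and 15.4 CPM (vagal/trunk, 11.3 to 20.4, an interval that overlaps that of dorsal interneuron 1), migratory crest at 12.2, and mid/hindbrain at 1.27. After thinning, 14.4% of dorsal interneuron 1 cells had a Bmp7 UMI against 1.55% of mid/hindbrain cells (median depths 20215 and 25975 before thinning). In the mid/hindbrain class Bmp7 was at 5.80 CPM in day 6 replicate 2, 2.45 at day 7 and 0.599 at day 8, the lowest of its 27 values by class and library in the second table.

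Within the second table Bmp4 was highest in the Pre-EMT cranial class on day 7, at 13.0 CPM (10.5 to 15.9), 5.02-fold over mid/hindbrain. In that class it was at 8.83 CPM in day 6 replicate 2, 4.60 at day 8 and 5.63 at day 10. In mid/hindbrain it went from 0.772 CPM in replicate 2 to 2.59 at day 7, 0.659 at day 8 and 1.72 at day 10, so the day 7 peak of the whole library was seen in this class too. Every class of at least 50 cells in this table had Bmp4 UMIs.

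At day 6 Fst was lower in spinal cord than in hindbrain, or in the joint mid/hindbrain class, in each of the 3 libraries. In the non-elongated library it was at 130 CPM in hindbrain and 18.7 in spinal cord. In elongated replicate 1 it was at 123 in hindbrain and 16.9 in spinal cord, and in replicate 2 it was at 126 in the joint mid/hindbrain class and 22.9 in spinal cord. These classes are not alike: the joint class took in 90.5% of replicate 2 cells, and hindbrain 35.6% of replicate 1 cells. Replicate 2 has no epiblast class, and the part of this in the Fst values was not tested. The midbrain class, told apart in the day 6 table only, was low at 14.7 and 27.5 CPM. High levels were not limited to hindbrain: caudal epiblast was at 125 CPM and anterior epiblast at 99.4 in the non-elongated library, and at 84.2 and 135 in replicate 1. The caudal epiblast class held 56.9% of the Fst UMIs of the non-elongated library, in 45.6% of its cells. By day the mid/hindbrain level was 44.1 CPM at day 7, 14.5 at day 8 and 2.93 at day 10, and the spinal cord level 23.9, 2.37 and 1.19. Both regions were thus lower at days 8 and 10 than at day 6, and the spinal cord class at day 7 was not below its day 6 level.

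**Figure D3:**
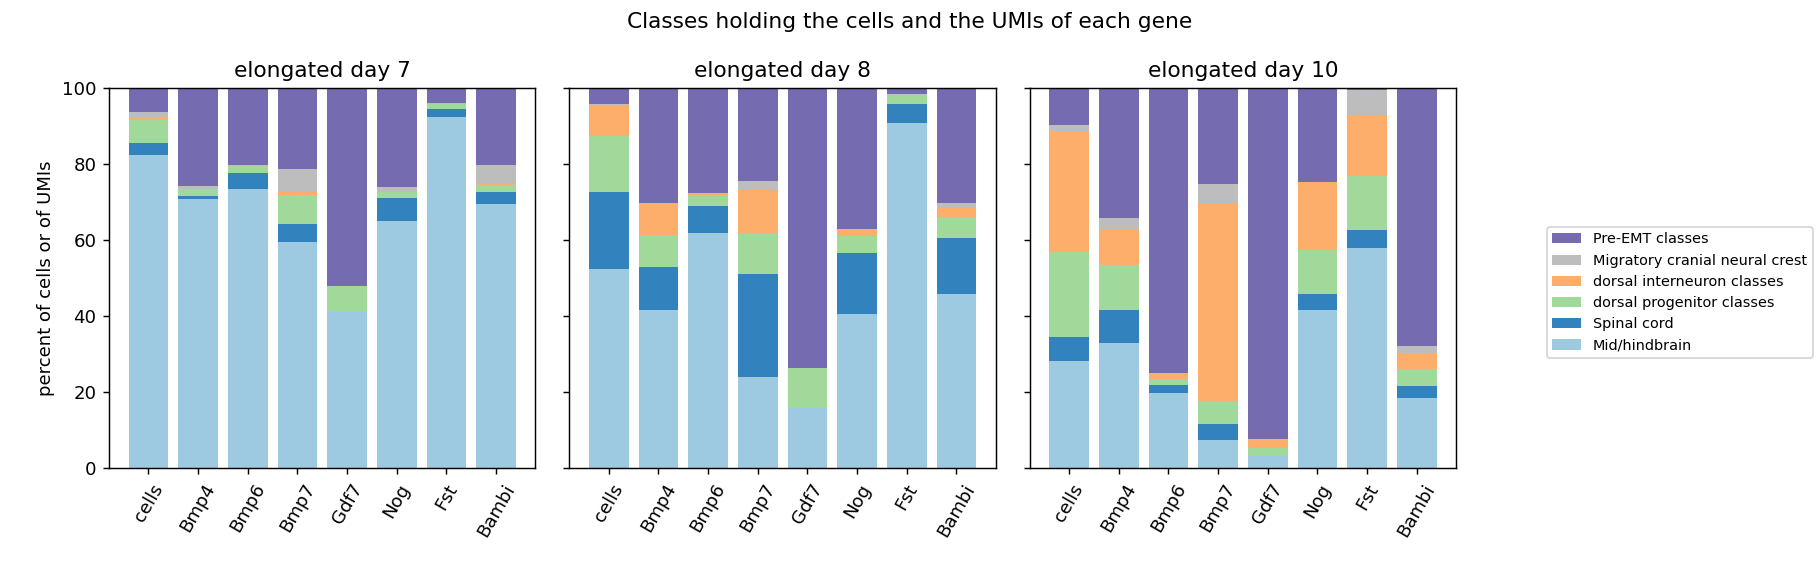
Percent of cells (first bar) and of each gene's UMIs (other bars) that lie in each group of classes, at days 7, 8 and 10. At day 10 the Pre-EMT classes hold 9.79% of cells but 92.4% of Gdf7, 75.1% of Bmp6 and 67.9% of Bambi UMIs, and the dorsal interneuron classes hold 52.1% of Bmp7 UMIs.

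The non-elongated and elongated organoids of day 6 were compared next; the 2 libraries of the day 6 table were assigned to these groups from the initials of their codes, which the labels do not spell out. None of the 6 genes was called, and edgeR called 0 of 16379 genes (0%), with 1137 at an unadjusted p under 0.05; DESeq2 called 127 genes. The log2 fold change of the non-elongated library was 1.41 ± 0.50 for Bmp4 (adjusted p = 0.595), 1.08 ± 0.34 for Bmp7 (adjusted p = 0.526) and 0.72 ± 0.34 for Bambi (adjusted p = 0.754). The non-elongated level lay above both elongated duplicates for Bmp4, Bmp6, Bmp7, Nog and Bambi, and between them for Fst, whose log2 fold change was -0.01 ± 0.29. In progenitors edgeR again called 0 of 15789 genes (0%; 522 with an unadjusted p under 0.05, 11 by DESeq2).

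By class, the non-elongated library had a mesenchyme class of 143 cells (6.43%), which in elongated replicate 1 had 17 cells, under the minimum of 50. All 8 mesoderm and mesenchyme markers had UMIs there, with a summed level of 422 CPM against 29.6 in surface ectoderm. This class held 113 of the 261 Bmp4 UMIs of the library (43.3%, 37.2% to 49.5%) at 25.0 CPM (20.6 to 30.1), 10.3-fold over hindbrain. It also had the library's highest levels of Bmp7, at 31.2 CPM (26.3 to 36.8), and of Bambi, at 65.1 CPM (57.9 to 73.0). For Bmp7 this interval overlaps that of surface ectoderm, which held 129 UMIs in 164 cells. In elongated replicate 1 the 17 mesenchyme cells held 16 of the 133 Bmp4 UMIs (12.0%), in 0.819% of its cells.

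The surface ectoderm class was present in both libraries of the day 6 table, with 164 and 150 cells, and differed between them. Bmp4 was at 6.45 CPM in the non-elongated and 1.55 in the elongated library, Bmp7 at 23.8 and 6.02, and Bambi at 26.3 and 10.7, while Fst was at 43.6 and 116. Their 7 surface ectoderm markers differed as well, with summed levels of 4452 and 1048 CPM and Trp63 at 0 in the elongated class, and their neural progenitor markers, with 61.5 and 272 CPM; the part of these in the 4 differences was not tested. In the hindbrain class the 2 libraries were closer for Bmp7, at 12.1 and 7.86 CPM, and for Bambi, at 14.7 and 14.2 CPM. Not every neural class was close. Spinal cord held 22 Bmp4 and 33 Nog UMIs in 177 non-elongated cells, against 27 and 42 in 507 elongated cells.

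**Figure D4:**
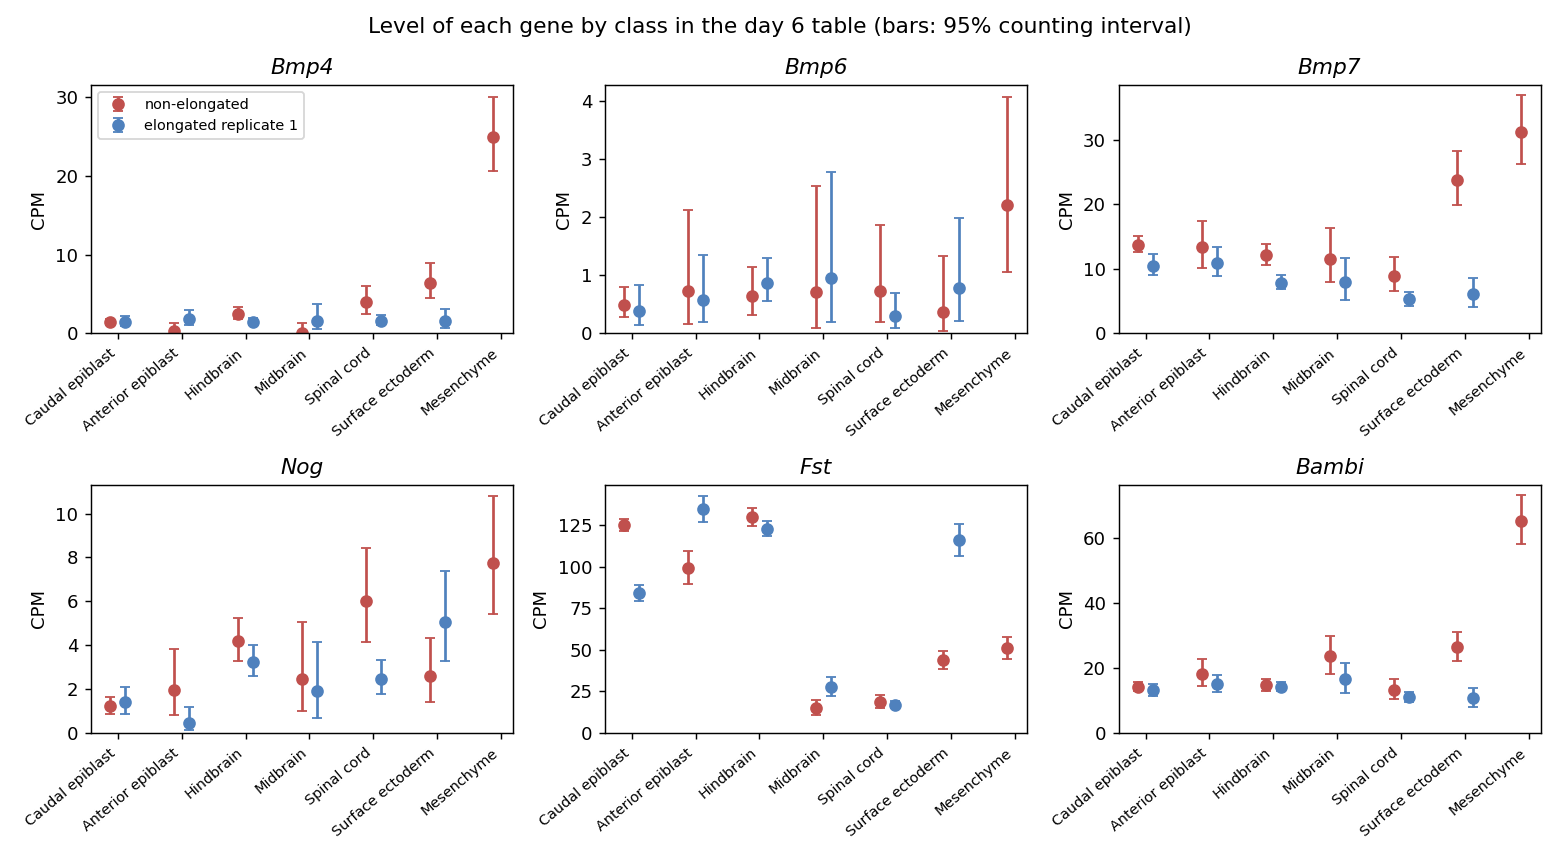
Level (CPM, y axis) with 95% counting interval of 6 genes in each class of at least 50 cells of the day 6 table, in the non-elongated library (red) and elongated replicate 1 (blue). Bmp4 reaches 25.0 CPM in the mesenchyme class of the non-elongated library, which has no elongated counterpart of 50 cells, and Fst is high in hindbrain (130 and 123 CPM) and low in spinal cord (18.7 and 16.9 CPM) in both libraries.

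Across the 27 combinations of class and library with at least 50 cells in the second table, Bmp6 and Bambi varied together (Pearson r = 0.858 on log2(CPM + 1)), as did Gdf7 with Bambi (0.811) and with Bmp6 (0.810), and Bmp6 with Nog (0.741). Fst ran apart, with r between -0.244 and 0.139 with the other 6, and Bmp7 had its closest partner in Bambi (0.518). These are descriptions over points that share libraries and depth. Gdf7 was at 0 in 12 of the 27 and reached at most 13.1 CPM, so its r values, also those below, lean on the few points with more UMIs. Among the 8581 genes that reached 20 CPM somewhere, Rspo1 was most like Bmp6 (0.937), followed by Adamts3 (0.927) and Tmem255a (0.901). Adamts3 was also first for Bambi (0.926), before Tmem64 (0.904) and Nr3c1 (0.891). Nearest to Gdf7 were Gm48898 (0.940), Ldb2 (0.920) and Gxylt2 (0.914), and nearest to Nog were Zcchc18 (0.872), the BMP target Msx2 (0.841) and Tmem255a (0.794). For Fst they were Apex1 (0.899), the early embryonic DNA methyltransferase Dnmt3b (0.892) and Grpel1 (0.875), for Bmp7 Chst1 (0.771), the semaphorin receptor Nrp2 (0.754) and Efna5 (0.740), and for Bmp4 Ahnak (0.822), Cela1 (0.770) and Dab2 (0.769).

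The other genes of the pathway give the setting at day 10, when 26.4% of all genes were called and the median log2 fold change of all genes was -0.01. Of 11 other BMP and related ligands, 1 rose and 3 fell, with a median of -1.11. Gdf3 and Nodal had 0 UMIs at day 10, as did the antagonist Cer1, and setting them to the bound that 3 counts allow left the medians of their lists at -1.11 and 1.00. Gdf11, a ligand of the activin branch, rose by 1.58 ± 0.30 (adjusted p = 0.00940), from 8.00 and 7.61 CPM in the duplicates to 27.8.

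Of 18 other antagonists and extracellular modulators, 6 rose and 3 fell, with a median of 1.00. Crim1, a membrane protein that binds BMPs, rose by 2.74 ± 0.33 (adjusted p = 0.00134) and Bmp1, the protease that cleaves Chordin, by 1.80 ± 0.33 (adjusted p = 0.00759).

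Of 10 receptors and co-receptors, 4 rose and 2 fell, with a median of 0.48. The type I receptor Bmpr1b went from 1.44 and 1.62 CPM to 12.9 and was also called at days 7 and 8 (3.16 ± 0.33 and 3.33 ± 0.33, adjusted p = 0.00412 and 0.00123). The co-receptor Rgmb rose by 2.68 ± 0.29 (adjusted p = 0.000864) and the type II receptor Bmpr2 by 2.45 ± 0.32 (adjusted p = 0.00194).

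Downstream, 2 of 4 SMAD transducers rose and none fell (median 0.76), among them Smad5, by 1.02 ± 0.27 (adjusted p = 0.0319). Of 7 intracellular inhibitors 4 rose and none fell (median 1.17). The inhibitory Smad7 went from 9.01 and 5.02 CPM to 90.1 and had already risen at day 7, by 2.37 ± 0.35 (adjusted p = 0.0140), and the inhibitory Smad6 rose by 1.49 ± 0.35 (adjusted p = 0.0192). Skil, which represses SMAD complexes, rose by 2.98 ± 0.34 (adjusted p = 0.00111). Of 6 BMP targets 2 rose and none fell (median 1.23): Msx2, a dorsal homeobox gene, by 3.86 ± 0.71 (adjusted p = 0.00815), although its duplicates stood at 4.67 and 0.982 CPM against 47.9, and Id4 by 1.98 ± 0.29 (adjusted p = 0.00314). Id1, Id2, Id3 and Msx1 were not called.

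**Figure D5:**
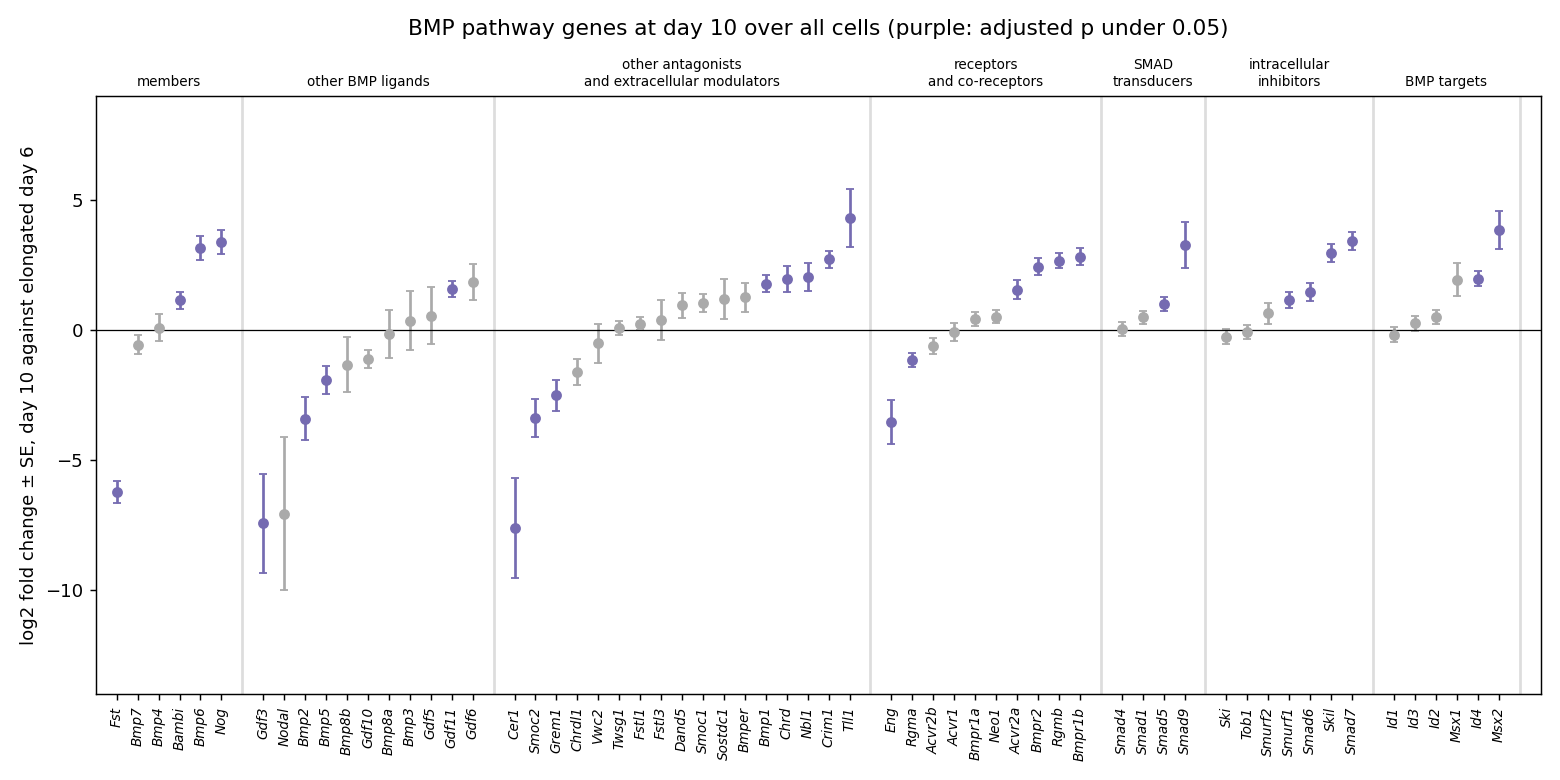
log2 fold change (y axis, bars show the SE) at day 10 against the elongated day 6 duplicates for tested BMP pathway genes (x axis), grouped by role; purple marks an adjusted p under 0.05 in the edgeR quasi-likelihood test. Fst lies at -6.22, the lowest of the 6 tested genes of the group. The SMAD transducers, intracellular inhibitors and targets have called genes on the higher side only.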

How the data were processed

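Single-cell RNA was measured in 6 libraries with the 10x Genomics 3′ kit (version 3), per the labels' protocols. The submitters' processing notes name Cell Ranger 3.1 and mm10. The authors deposited UMI counts per gene and cell without normalisation, a mitochondrial share in percent, and class names, which carry no unit (other); how cells were filtered, classes assigned, doublets treated and strand used is not given in the sources used here. No doublet caller was run. The day 6 table codes its libraries NENT and SENT, read from their initials.

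The 7 genes, the pathway and marker lists and the tests were chosen with earlier results of these data known. UMIs were summed per library and class. The 17296 symbols in both tables were fitted by edgeR (4.0.16, on limma 3.58.1 and R 4.3.3). The fit used TMM, filterByExpr with minimum count 10, quasi-likelihood and 5 group means. The duplicates gave it 1 residual degree of freedom. A slope over day left 3 in the elongated libraries and 2 in those of the second table. DESeq2 1.42.0, other scalings and other filters were the alternatives, and the scripts were tested on simulated data. The simulated spread was smaller than that of these libraries and the changed genes had many UMIs, so that test does not cover genes of few UMIs. All 7 genes are named. From each other list come up to 3 called genes with the largest change that reach 5 CPM in either group (1 such antagonist is counted but not reported or plotted here), and for likeness the 3 highest correlations. Shares of cells used cells thinned to 10000 UMIs; 44 shallower cells were left out. Pairs of libraries shared 1 to 4 cell barcodes. A count of 0 is bounded at 3 counts. Gene positions are GENCODE's on GRCm38.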

Additional observations from a re-analysis of the deposited data

Results flagged for a closer look

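For 3 genes, Bmp6, Nog and Bambi, there were classes that lay on opposite sides of 0 between the same pair of libraries. Each value is a log2 ratio of class sums, 1 library against 1, beyond the counting intervals, and the difference between classes was not tested. From day 7 to day 8 Bmp6 differed by 1.17 in the Pre-EMT cranial class (10.5 to 23.6 CPM) and by -1.78 in spinal cord (4.13 to 1.21 CPM). From day 7 to day 10 Nog differed by 1.31 in mid/hindbrain and 2.07 in the proliferative progenitor class, but by -0.46 in the Pre-EMT cranial class and -0.80 in spinal cord. From day 8 to day 10 Nog differed by 2.39 in mid/hindbrain, 2.55 in proliferative progenitors, 2.10 in dorsal interneuron 3, 1.83 in dorsal progenitor 2/3 and 1.18 in spinal cord, against -0.55 in the Pre-EMT cranial class. From day 6 replicate 2 to day 8 Bambi differed by -0.77 in mid/hindbrain (9.58 to 5.60 CPM) and by 2.43 in the Pre-EMT cranial class (9.53 to 51.5 CPM), the class whose surface ectoderm markers went from 1402 to 36.1 CPM over the same libraries. That marker shift's part in the Bambi value was not tested.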

How the results depend on the processing

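Of 331 values of these genes under alternatives to the group comparisons, 318 were classed as the same, and of 68 for the slopes 60 were. For fits with an adjusted p, this means the same direction and side of the threshold. Group values with a day 6 duplicate left out carry no test. They were classed as the same when they shifted by less than the SD of the duplicates. Leaving out a duplicate could hardly shift them further, so these values say little. DESeq2 values without an adjusted p were not counted. Over all cells, the count for non-elongated against elongated day 6 went from 0 to 127 with DESeq2 and 21 with DESeq2's size factors in edgeR, and at day 7 from 654 to 380 with a minimum count of 100. In progenitors DESeq2 gave 11 genes for the non-elongated comparison and 685 at day 7. The slope over the 5 elongated libraries called 3749 genes, 6008 with DESeq2, and between 0 (without replicate 2) and 2971 with a library left out. Its added form in the second table, chosen after seeing the data, called 1730, 4936 with DESeq2, and between 0 and 33 (without replicate 2) with a library left out, which leaves 3 libraries and fewer residual degrees of freedom. The Fst value in the non-elongated comparison turned from -0.01 to 0.019 with DESeq2's size factors and with DESeq2, and to 0.0023 with a minimum count of 100. The Bmp4 slope turned to 0.00040 with library size alone, and the Bambi slope ranged from -0.28 (without day 10) to 0.28 (without day 8). Without day 10 the Bmp7 slope was -1.20 (adjusted p = 0.0278, edgeR). Without day 7, and with DESeq2, the Bmp6 and Nog slopes were called. The cause was not tested. No paired analysis was possible because the groups compared share fewer than 2 replicate numbers. Only 1 of the 3 genes most like Fst remained with classes of at least 20 cells. Low UMI numbers limit Gdf7 before day 10.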
